A study of Mus musculus with 2 samples.

Results

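Matrix metalloproteinases and their inhibitors were followed in RNA of uterine stromal cells, the connective tissue cells under the uterine epithelium that turn into decidua around an embryo once it attaches. The 9 genes were taken by name and comprised 6 proteases (Mmp2, Mmp9, Mmp11, Mmp14, Adamts1 and Adamts5) and 3 inhibitors (Timp1, Timp2 and Timp3). Every probe set annotated with exactly 1 of these symbols was used, which gave 21 probe sets of 20380 with 1 symbol, and 9 genes of 12393. The knockout-labelled array held RNA of stromal cells from conditional knockout mice, pooled over 3 animals and taken on day 5 of pregnancy, and the control array held RNA of the same kind from floxed mice. The first were labelled Hif1 cKO and Hif2 alpha-null, and the second Hif1 flox control and Hif2 alpha-intact. Pregnancy was by fertile males, cells were freed from the uterine horns by enzymatic digestion, and no source used here gives the animals' age or strain. The knockout was made with PRcre, a Cre allele driven by the promoter of the progesterone receptor gene, which is active in several uterine cell types. The labels disagree on the deleted gene, which is Hif1 in the titles, Hif2 alpha or Hif2 in the genotype field and the treatment note, and Rac1 from a Hif1 floxed cross in the breeding note, so the array is called knockout-labelled. With 1 Affymetrix Mouse Genome 430A 2.0 array per group there was no replicate, and no difference below has a test or a p-value.

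Matrix metalloproteinases are zinc proteases that cut collagens and other matrix proteins, and are made as inactive precursors that are opened by other proteases. ADAMTS proteases are secreted relatives that cut proteoglycans such as versican. TIMPs are small secreted proteins that block the active site of these enzymes, and the balance between the groups sets how fast matrix is broken down. In the mouse uterus, matrix around the implanting embryo is remodelled in this way as stroma becomes decidua.

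The values are MAS5 signals, linear array brightness in arbitrary units, and a signal of 19.7, the 40th percentile of both arrays pooled, was used as a floor below which values were not ordered. A log2 ratio is the knockout-labelled array minus the control array, and a gene was read at its brightest probe set. Over the 8593 genes that exceeded the floor on either array, the median log2 ratio was -0.10. For 2660 genes with at least 2 probe sets above the floor on both arrays, the SD of a single log2 ratio, from the disagreement of the 2 brightest, was 0.64. This error leaves out the spread between animals, pools and arrays. The arrays also differed in RNA quality signs, since the 3' to 5' signal ratio of the b-actin control was 16.0 on the knockout-labelled array and 2.27 on the control array, and that of Gapdh was 7.25 and 1.49. This split runs exactly with the labels, and its part in the results below cannot be told apart from that of the genotype. The named targets were all measured on the knockout-labelled array, with brightest signals of 1544 against 721 in control for Hif1a, 78.1 against 59.4 for Epas1 (Hif2 alpha) and 757 against 1038 for Rac1. Dimmer probe sets gave log2 ratios of 1.38 and 0.52 for Hif1a, and Rac1 had 332 on the knockout-labelled array and 664 on the control array at its other measured one, a 2-fold lower signal. Where these probes lie relative to deleted exons was not analysed here.

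All 3 TIMPs had lower signals on the knockout-labelled array than on the control array at their brightest probe sets, whereas the proteases went both ways, and the log2 ratio of Timp3 turned from negative to 0.02 when each array was centred on its median. Timp1 and Timp2 were the members at least 2-fold lower, 2 of 9, and 0 of 9 were at least 2-fold higher. Over all genes the shares were 13.0% and 6.21%. Any lower value, whatever its size, was seen for 5 of 9 members and 55.3% of all genes. The median log2 ratio was -1.12 over the 3 inhibitors and 0.11 over the 6 proteases, a difference of -1.23. By probe set, 10 of 10 measured inhibitor probe sets and 4 of 10 measured protease probe sets were lower by any amount, where 56.0% of 13284 probe sets were. At least 2-fold lower were 4 inhibitor probe sets and 1 protease probe set, where 13.9% of all probe sets were. As deposited, no member probe set was at least 2-fold higher, where 6.84% of all were.

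**Figure D1:**
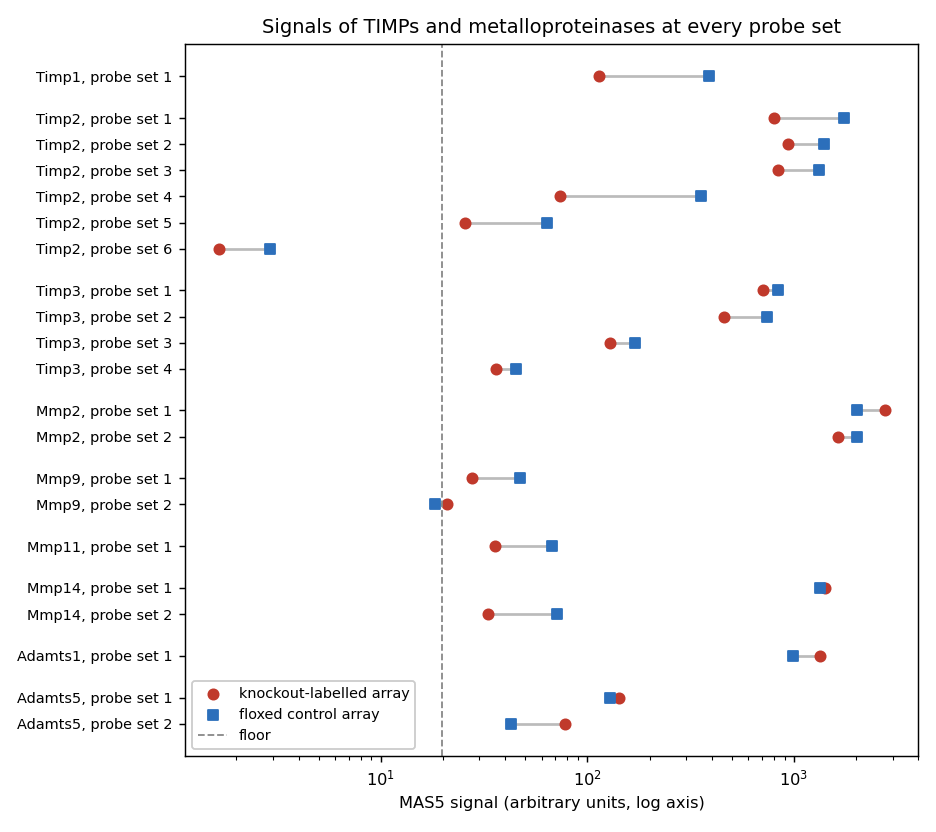
MAS5 signal (log axis, arbitrary units) of each of the 21 probe sets on the knockout-labelled array (red circles) and the floxed control array (blue squares), with the floor of 19.7 as a dashed line and probe sets numbered from the brightest of each gene. Each point is 1 array. As deposited, all 10 TIMP probe sets above the floor have the red point left of the blue one, while the protease pairs lie in either order.

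The 250 bases before the start of each of the 3 inhibitors, chosen after their values were seen, are shown (RefSeq, GRCm38.p6). Whether these letters bear on the ratios was not tested. Capitals mark ACGTG or GCGTG on either strand, the core letters to which hypoxia-inducible factors are known to bind. The windows are chrX:20869916-20870165 on the plus strand for Timp1, chr11:118355412-118355661 on the minus strand for Timp2 and chr10:86300162-86300411 on the plus strand for Timp3.
Timp1: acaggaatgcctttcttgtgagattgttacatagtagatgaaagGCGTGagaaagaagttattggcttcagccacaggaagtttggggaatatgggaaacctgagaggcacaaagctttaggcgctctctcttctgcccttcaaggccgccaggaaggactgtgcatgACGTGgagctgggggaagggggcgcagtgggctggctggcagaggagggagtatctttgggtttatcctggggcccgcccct
Timp2: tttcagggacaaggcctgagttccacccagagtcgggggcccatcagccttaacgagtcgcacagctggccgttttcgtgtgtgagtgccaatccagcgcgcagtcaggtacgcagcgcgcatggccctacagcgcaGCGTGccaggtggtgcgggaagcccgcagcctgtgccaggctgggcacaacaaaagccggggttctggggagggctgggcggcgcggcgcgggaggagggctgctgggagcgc
Timp3: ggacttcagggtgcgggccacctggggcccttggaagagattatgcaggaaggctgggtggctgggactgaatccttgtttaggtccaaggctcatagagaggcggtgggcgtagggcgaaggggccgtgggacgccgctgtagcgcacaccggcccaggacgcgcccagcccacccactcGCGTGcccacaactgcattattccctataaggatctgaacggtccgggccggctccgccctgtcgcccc
Timp1 held ACGTG starting 82 bases and GCGTG starting 206 bases before the start. Timp2 held GCGTG 113 bases and Timp3 held GCGTG 69 bases before it. Of 32851 promoter windows of the same length, 38.6% held ACGTG or GCGTG (16.6% the first and 28.2% the second), so such a match is common. Among the proteases with a promoter in the table, Mmp14 and Adamts1 held 1 match each and Mmp11 held 0, which made 5 of 6 members. The AP-1 motif TGANTCA, on either strand, was in 0 of these 6 windows and in 6.75% of all windows, and the GC box GGGCGG, on either strand, was in all 6 and in 32.7%. The motifs do not overlap one another in the TIMP windows. The 6 windows were 54.4% to 68.0% G and C, against a median of 52.4% over all windows, and a match is only a description of the letters.

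Timp1, an inhibitor of most secreted metalloproteinases that is known to be induced by serum and cytokines, had the lowest log2 ratio of the 9 members. Its single probe set (1460227_at) gave a signal of 114 on the knockout-labelled array and 386 on the control array, a log2 ratio of -1.76 or 3.39-fold lower. In size that ratio exceeds the probe set SD of 0.64, and 2.42% of all genes were at or below it. No further probe set was there to check it.

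Timp2, the inhibitor that also bridges MMP14 and the MMP2 precursor at the cell surface, was lower at all 5 of its measured probe sets. The brightest (1454677_at) had signals of 799.9 on the knockout-labelled array and 1739 on the control array, a log2 ratio of -1.12 or 2.17-fold lower. The next (1460287_at) had 932 and 1391 on the same arrays, a log2 ratio of -0.58, and the third (1433662_s_at) had 840.2 and 1324, a log2 ratio of -0.66. Of these 3 bright probe sets, 1 was past 2-fold. The 2 dimmer ones were lower by more, with 73.6 on the knockout-labelled array and 355 on the control array (1450040_at, log2 ratio -2.27), and 25.5 and 63.5 (1420924_at, log2 ratio -1.32). The remaining one (1437081_at) lay under the floor on both arrays, at 1.64 and 2.90. Over the 5, the mean log2 ratio was -1.19 with an SD of 0.68 between probe sets, and 3 of 5 were at least 2-fold lower. The 5 are not independent, as 3 were designed on 1 source sequence and 2 on another. Of 118 genes with at least 5 measured probe sets, 7 (5.93%) were lower at all of them.

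Timp3, the inhibitor that binds to the matrix and also blocks ADAMTS and ADAM proteases, was lower by a small amount at 4 of 4 probe sets, none of them 2-fold. Its signals were 704 on the knockout-labelled array and 840.2 on the control array at the brightest (1449335_at, log2 ratio -0.25) and 457 and 743 at the next (1419089_at, -0.70). The other two had 129 and 171 (1449334_at, -0.41) and 36.2 and 45.1 (1419088_at, -0.31). The ratio of the brightest lay within 1 probe set SD of 0, and all 4 were designed on the same source sequence, with an SD of 0.20 between them. Of 346 genes with at least 4 measured probe sets, 21 (6.07%) were lower at all of them. After median centring the 4 ratios ran from -0.42 to 0.02, so the shared direction rests on the scaling for the brightest. In order from the lowest, the log2 ratios were those of Timp1, Timp2 and Timp3. Neither Timp1 and Timp2 nor Timp2 and Timp3 differ by more than 0.91, the SD of a difference between 2 probe sets of a gene. Timp1 and Timp3 differ by more than that.

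**Figure D2:**
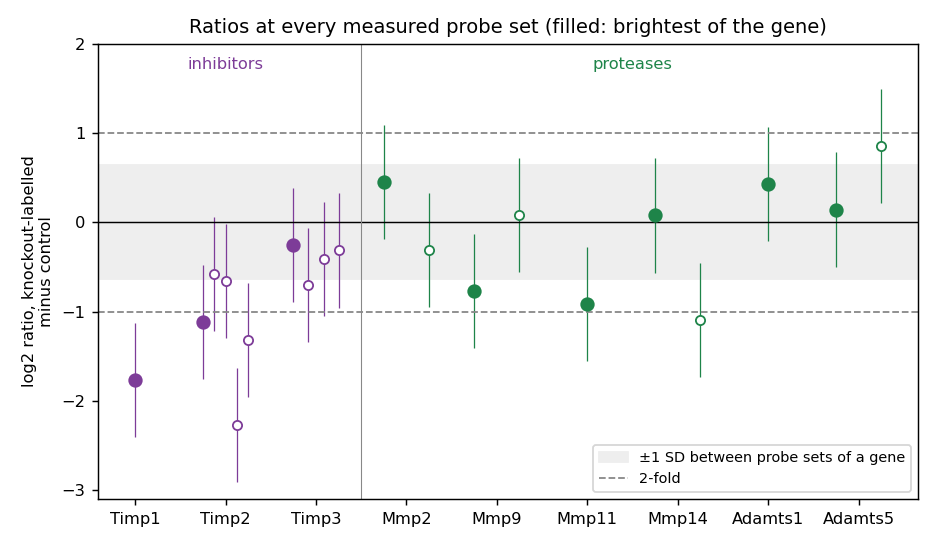
Log2 ratio (knockout-labelled minus control) at each of 20 measured probe sets of the 3 inhibitors (purple) and 6 proteases (green), filled for the brightest of a gene. Error bars and the grey band show 1 SD between probe sets of a gene, 0.64, and dashed lines mark 2-fold. As deposited, the inhibitor points all lie below 0, from -2.27 to -0.25, and the protease points run from -1.10 to 0.85.

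The gelatinases cut denatured collagen and basement membrane collagen. Mmp2, the constitutive gelatinase of fibroblasts, was among the bright genes on both arrays, and its 2 probe sets disagreed in sign. The brightest (1439364_a_at) had signals of 2759.7 on the knockout-labelled array and 2019 on the control array, a log2 ratio of 0.45, and the other (1416136_at) had 1626 and 2010.5, a log2 ratio of -0.31. Neither lay more than 1 SD from 0, and no direction can be given for Mmp2. Mmp9, the inducible gelatinase known from leukocytes and trophoblast, was near the floor, with 27.5 on the knockout-labelled array and 46.9 on the control array (1416298_at, log2 ratio -0.77). Its second probe set (1448291_at) had 21.0 on the knockout-labelled array and was under the floor on the control array at 18.4, which gives a bound of at least 1.06-fold higher there. Mmp9 thus differed in sign between its probe sets at levels where MAS5 signals are noisy.

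Mmp14, the membrane-anchored protease that opens the MMP2 precursor, was about level at its bright probe set and lower at its dim one. The bright one (1448383_at) had 1413 on the knockout-labelled array and 1339 on the control array, a log2 ratio of 0.08. The dim one (1416572_at) had 33.2 and 71.0 on the same arrays, a log2 ratio of -1.10, and was the single protease probe set past 2-fold. The brighter lay 1.17 above the dimmer, where over all genes with 2 probe sets the brightest lay 0.41 above the next on average with an SD of 0.91, so this gap is within 1 SD of the mean. Both were designed on the same source sequence. Mmp11, also called stromelysin-3 and known from remodelling stroma, had 35.6 on the knockout-labelled array and 67.2 on the control array at its single probe set (1417234_at), a log2 ratio of -0.91 or 1.89-fold lower. It shrank to -0.02 with the floor raised to the 60th percentile, a signal of 66.3, since the control value barely exceeds that.

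The ADAMTS proteases were on the higher side at each of their 3 probe sets, none of them 2-fold as deposited. Adamts1, a progesterone-responsive protease of the ovary and uterus that cuts versican, had 1340.4 on the knockout-labelled array and 993 on the control array (1450716_at, log2 ratio 0.43). Adamts5, known as an aggrecan and versican protease of cartilage, had 142 and 129 at its brightest probe set (1422561_at, log2 ratio 0.14) and 77.5 and 42.9 at the other (1450658_at, 0.85). As genes, both stayed between 0.14 and 0.71 under all 8 alternatives of scaling, floor and probe set choice. The 0.43 of Adamts1 is within 1 SD of 0, and 44.7% of all genes were higher by any amount.

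Inhibitors were also set against the proteases they are known to act on, as differences between log2 ratios, which compare changes and not levels. Timp2 minus Mmp2 was -1.57 at the brightest probe sets, and it was below 0 in 10 of 10 combinations of their measured probe sets (-2.72 to -0.27). Timp2 minus Mmp14 was -1.20, below 0 in 8 of 10 combinations, with the dim Mmp14 probe set reaching 0.52. Timp1 minus Mmp9 was -0.99, and -1.85 with the other Mmp9 probe set. Timp3 minus Adamts1 was -0.69 and Timp3 minus Adamts5 was -0.40, both below 0 at every combination but both under the SD of 0.91 for 2 probe sets of 1 gene. Across all 18 inhibitor and protease gene pairs, the inhibitor ratio was the lower one in 16, the exceptions being Timp3 against Mmp9 and Timp3 against Mmp11. The pairs share genes and arrays and are no replicates.

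**Figure D3:**
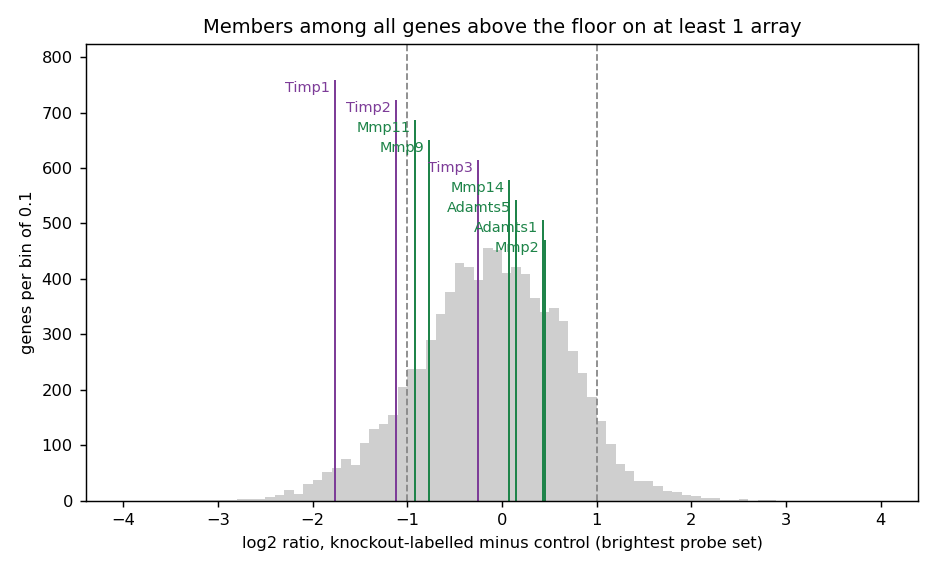
Histogram of log2 ratios (knockout-labelled minus control) of 8593 genes at their brightest probe set, in bins of 0.1, with inhibitors (purple lines) and proteases (green lines) marked and 2-fold as dashed lines. Timp1 at -1.76 lies in the lower tail and Timp2 at -1.12 past the 2-fold line, while the 6 proteases lie between -0.91 and 0.45.

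Among all genes past 2-fold, 32.3% were higher as deposited, and the share was 46.2% after quantile normalization, 43.7% after removing the trend of ratio with signal and 63.1% after median centring. Median centring raised the median log2 ratio of all genes to 0.16. Timp1 was at least 2-fold lower under all 8 alternatives (-1.76 to -1.48) and Timp2 under 7, with -0.84 after median centring. Timp1 has a single probe set above every floor used, so other floors and choices of probe set could not change its -1.76. Timp2 also kept its -1.12 under those alternatives. Mmp14 turned to -0.10 after quantile normalization, -0.15 after trend removal and -0.51 as the median of its probe sets. Ratios ran with signal, and Timp2, Timp3, Mmp2, Mmp14 and Adamts1 lay in the brightest of 5 equal groups of genes by signal, where the median log2 ratio was 0.31 and 6.69% were at least 2-fold lower. Timp1 lay in the next group, where 11.2% were at least 2-fold lower.

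**Figure D4:**
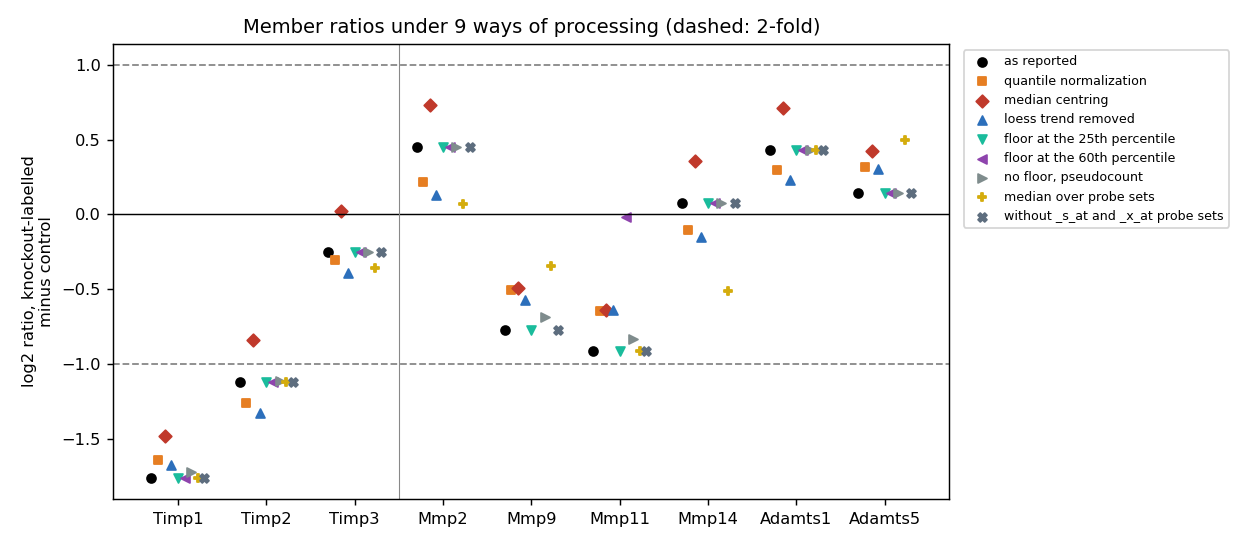
Log2 ratio (knockout-labelled minus control) of each member under 9 ways of processing, 1 symbol per way, with 2-fold dashed. Timp1 stays below -1 throughout and Timp2 rises above it only with median centring, at -0.84. Timp3 and Mmp14 lie on either side of 0, and Mmp9 has no point for the floor at the 60th percentile.

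In the wider protease families on the array, 1 measured gene was past 2-fold, where 13.0% of all genes were lower and 6.21% higher by that rule. Of 14 other matrix metalloproteinases with a probe set, 8 were under the floor on both arrays, among them the collagenases Mmp8 and Mmp13. Over all genes, 3800 of 12393 were. Of the 6 other matrix metalloproteinases measured, 1 was at least 2-fold lower (median log2 ratio -0.31). It was Mmp17, a membrane-anchored member, with 17.5 on the knockout-labelled array, under the floor, and 39.6 on the control array, at least 2.01-fold lower. Named after its values were seen, Mmp23 had log2 ratios of 0.63 where brightest and -1.90 at a dimmer probe set. Of 5 measured ADAMTS relatives, 0 were past 2-fold (median -0.32), and the 2 brightest were Adamts4 (-0.11) and Adamts15 (0.06), both proteoglycan-cutting enzymes. Of 8 measured ADAM and astacin proteases, 0 were past 2-fold (median -0.01). The brightest of these, Adam10, a sheddase of Notch and cadherins, had 938 on the knockout-labelled array and 482 on the control array (0.96), and Adam9 gave 0.30.

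The inhibitors outside the 3 TIMPs did not all share their direction. Reck, a membrane-anchored inhibitor of metalloproteinases, had 524 on the knockout-labelled array and 332 on the control array, a log2 ratio of 0.66. A2m, a broad protease trap, had 280.1 and 336 on the same arrays (-0.26), and Timp4 was under the floor on both. Of 3 measured in this list, 2 were higher and 1 lower by any amount, where 44.7% of all genes were higher. None was past 2-fold, and the median log2 ratio was 0.49.

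Genes that act with the members had shares past 2-fold near those of the whole array (13.0% lower and 6.21% higher). Of 5 measured genes of the plasminogen system, which opens metalloproteinase precursors, 1 was at least 2-fold lower and 0 higher (median -0.19). It was Plgrkt, a plasminogen receptor, with 52.1 on the knockout-labelled array and 193 on the control array (-1.89). Of 11 measured convertases and binding partners, 2 were at least 2-fold lower and 0 higher (median -0.39). Bsg, known as an inducer of metalloproteinases in neighbouring fibroblasts, had 101 on the knockout-labelled array and 425 on the control array at its single measured probe set (-2.07), and Pcsk5, a proprotein convertase, had 276 and 591 (-1.10), while a dimmer probe set gave -0.09. Of 16 measured transcription factors and cytokines that act on metalloproteinase genes, 2 were at least 2-fold lower, the AP-1 subunit Junb (-1.24) and the NF-kB subunit Rela (-1.05), and 1 was at least 2-fold higher, the cytokine Il6 (1.11), with a list median of -0.27.

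Among substrates, 1 of 20 collagen and basement membrane genes was at least 2-fold lower and 0 were higher (median log2 ratio -0.03). Over all genes the shares were 13.0% lower and 6.21% higher. The lower one was Tnc, the matrix glycoprotein tenascin-C, with 66.7 on the knockout-labelled array and 139 on the control array (-1.06). Of 8 measured proteoglycan and hyaluronan genes, 1 was at least 2-fold lower, Prelp, a leucine-rich repeat proteoglycan (-1.80, and -0.20 or lower at the dimmer probe set), and 0 were higher (median 0.30). Named after its values were seen, Vcan, which encodes the versican that ADAMTS proteases cut, was higher at each of 3 probe sets, with log2 ratios of 0.10 to 0.80. Bgn of the same list, also named after its values were seen, was lower at each of 3, with log2 ratios of -1.73 to -0.37.

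**Figure D5:**
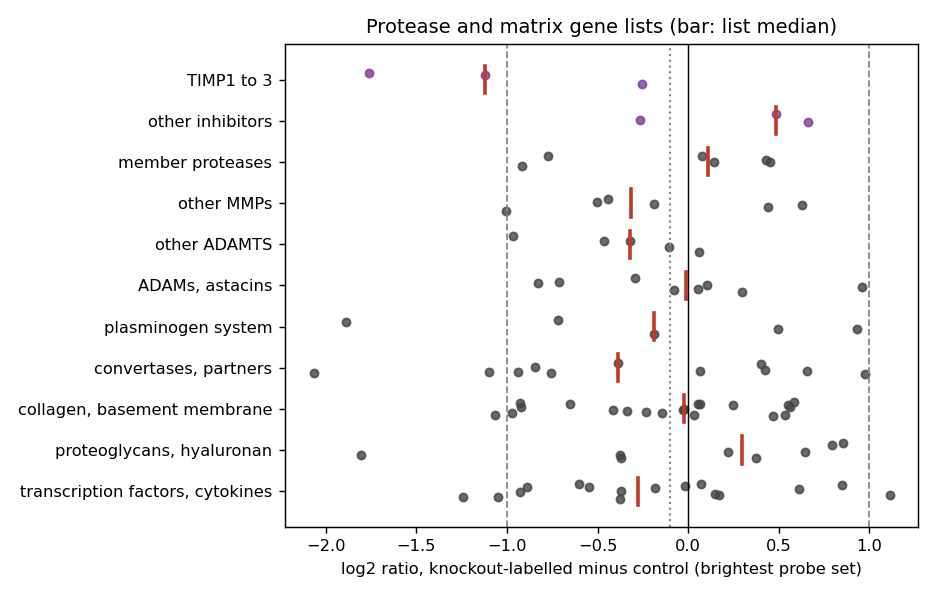
Log2 ratio (knockout-labelled minus control) of each measured gene at its brightest probe set, by list, with the list median as a red bar, 2-fold as dashed lines and the median of all genes, -0.10, dotted. The marker lists of cell types are not drawn. The 3 TIMPs have a median of -1.12, near that of the endothelial markers and above the -1.46 of the myeloid markers, and the 3 other inhibitors lie between -0.26 and 0.66.

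The stromal markers differed widely in signal. Vim had 7436 on the knockout-labelled array and 4701 on the control array and Pdgfra had 2212.5 and 2215, whereas Hand2 had 22.1 and 21.2, Esr1 had 19.8 and, under the floor on the control array, 18.4, and Pgr had 29.7 and 52.6. Of 12 stromal markers, 1 was at least 2-fold lower, Hoxa11, with 107.7 on the knockout-labelled array and 389 on the control array, and the list median log2 ratio was -0.14. By any amount, 7 of the 12 were lower and 5 higher. To set beside this and the lists below, 55.3% of all genes were lower by any amount. Past 2-fold, 13.0% of all genes lay on the lower side and 6.21% on the higher side. Dimmer probe sets gave log2 ratios of -1.70 for Pdgfra, and -0.58 and 0.26 for Vim, against 0.66 at its brightest. Pdgfrb had 0.46 at its brightest and -2.09 at the other, and Nr2f2 had -0.54, then 0.70 and 0.81. The digest also held RNA of other cells, and in pooled RNA fewer cells of a type and less RNA per cell cannot be told apart. Of 9 endothelial markers, 9 were lower and 5 at least 2-fold lower (median -1.12), with a summed signal of 1374 on the knockout-labelled array and 2888 on the control array. Past 2-fold were 6 lower and 2 higher of 10 myeloid markers (median -1.46), with sums of 3540.2 and 4038. Of the higher ones, C1qb had a log2 ratio of 1.58 at its brightest probe set but -2.68 and 0.54 at the others. The endothelial median is near that of the TIMPs, and the myeloid median is lower. Smooth muscle and pericyte markers had 7 of 9 lower and 4 at least 2-fold lower (median -0.98), with sums of 11543 and 11456 in which the bright Acta2 and Rgs5, both on the higher side, weigh most. Epithelial markers had 3 of 9 measured at least 2-fold lower (median -0.39), with sums of 1926 and 2387. By any amount, 5 of these 9 were lower and 4 higher. For cells known for Mmp9, 4 of 10 neutrophil and mast cell markers were above the floor and 2 of these, the mast cell genes Cma1 and Kit, were at least 2-fold lower (median -0.78), with sums of 205 and 330. S100a9, Elane, Csf3r, Cxcr2, Ngp and Camp were under the floor on both arrays. Past 2-fold were 2 lower and 1 higher of 8 measured lymphocyte and NK cell markers (median -0.31), with sums of 1167 and 1221. Of 7 embryo and trophoblast markers 2 were measured (median 0.08, none past 2-fold), with sums of 635 and 433. These shifts ran with the lower TIMP signals on the same array, and their part in the TIMP values was not tested.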

How the data were processed

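RNA of stromal cells pooled over 3 animals per genotype was measured on 2 one-colour arrays, 1 per group, grouped by sample title. Per the labels' protocols, RNA was extracted with Trizol and labelled with a 3' Express kit. The authors deposited 1 linear intensity per probe set, the MAS5 signal from version 1 of Affymetrix Expression Console, per the submitters' processing notes. No source used here gives the scaling target, and the authors' scaling was kept (trimmed mean 150.1 on both arrays). Detection calls were not used here.

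Names came from the platform annotation and Entrez identifiers in a RefSeq table of GRCm38.p6 (20351 probe sets matched), and probe sets with several symbols (691) or none here (1555) and 64 controls were left out. Signals were raised to the 40th percentile of both arrays pooled, then put on a log2 scale, and a gene was read at its brightest probe set. Genes at the floor on both arrays (3800) entered no count. Calls were by size, at least 2-fold. The size rule was tested on simulated data, with changes well past 2-fold and noise below the probe set SD of 0.64. Such a test does not tell how the rule performs on these arrays. Python 3.11.15, pandas 2.3.3 and statsmodels 0.14.6 were used.

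The members, 9 pathway lists, 8 marker lists and rules were chosen with earlier results of these data known. Named are all members and, of each list, up to 4 genes past 2-fold or the 2 brightest where none was, and marker lists are given by counts, with examples chosen after their values were seen. Alternatives were 3 scalings, 3 treatments of low signals, 2 choices of probe set and 2 fold sizes. The number of arrays limits the precision.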

Additional observations from a re-analysis of the deposited data

How the results depend on the processing

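No paired analysis was possible because each group had 1 array, and for the same reason no replicate could be left out. The 2 members at least 2-fold lower became 1 after median centring, 4 at 1.5-fold and 1 at 3-fold, and the count of members at least 2-fold higher stayed at 0 under all of these alternatives. The difference between inhibitor and protease medians, -1.23, moved by less than the probe set SD under all 8 alternatives that apply to it. Not all of these are checks, since median centring shifts all ratios above the floor alike and could not move a difference. A floor at the 25th percentile and leaving out shared probe sets also left it at -1.23. With each gene read as the median of its probe sets the difference was -0.98. Between the medians of all measured inhibitor and protease probe sets it was -0.76. The median of the 3 inhibitors is the ratio of Timp2 alone. The probe set SD of 0.64 is that of a single ratio and not of a difference of medians. Of single members, Mmp11 alone moved by more than that SD, to -0.02 under a 60th percentile floor, at which Mmp9 had no value. Over the whole array, the 2-fold counts of 1119 lower and 534 higher genes became 671 and 1146 after median centring, 2268 and 1592 at 1.5-fold and 330 and 106 at 3-fold. With the floor at the 60th percentile 601 were lower. Signals near the floor, as for Mmp9 and Mmp11, limit what can be read, and the cause of each shift was not tested.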

Other observations

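Several matrix genes gave unlike ratios at their probe sets, chosen here after their values were seen. Sparc, a matrix protein that binds collagen, had a log2 ratio of 0.07 at the brighter probe set and -1.65 at the dimmer. Mmp19 gave -0.44 and -1.69, and the tetraspanin Cd151 gave 0.66 at its brightest and as low as -1.35 at others. Over 2660 genes, the brightest probe set lay 0.41 above the next on average, and the signs of the 2 were the same in 55.8%. Timp2, with 5 measured probe sets lower, and Timp3, with 4, did not differ in sign between probe sets as deposited.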
